A study of Mus musculus with 29 samples.

Results

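The 10 genes described here are classical targets of the Hippo pathway, namely Ctgf, Cyr61, Ankrd1, Axl, Tgfb2, Nuak2, Amotl2, Lats2, Ajuba and Wwc1. They were chosen by name, out of 21938 protein-coding genes of the mouse annotation, and every peak of 28 ChIP-seq peak lists was taken that touched the gene body or the 50 kb on either side of it (GRCm38, also called mm10). The cells were NIH-3T3, an immortalized mouse embryonic fibroblast line, carrying the doxycycline-dependent activator rtTA3G and a lentiviral transgene for 1 transcription factor with 3 C-terminal HA epitope tags. Doxycycline was given overnight at 500 ng/ml to induce the transgene, 1% formaldehyde was used for fixation, and DNA bound by the tagged protein was recovered with an anti-HA antibody and sequenced. The 28 lists cover 24 constructs. There were 2 lists each for SOX2-HA, BHLHB8-HA, OCT4-HA and FOXA1-HA, and 1 list for each of the other 20 constructs, among them the mutated forms FOXA1_RR-HA and FOXA1_SW-HA and OCT4-HA expressed together with SOX2-YPET. All groups share the cell line, the induction and the fixation, and each factor was present as an overexpressed transgene product. An input sample of the same cells was used by the authors to discard background peaks and is not analysed here.

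In the Hippo pathway, the kinases MST1/2 and LATS1/2 phosphorylate the coactivators YAP and TAZ, which are then kept out of the nucleus. When the pathway is off, YAP and TAZ enter the nucleus, where they have no DNA-binding domain of their own and reach DNA mainly through the TEAD factors, often at distal elements that also hold AP-1 motifs. The TEAD factors are thus the classical DNA-bound route to these 10 genes, and the question was where TEAD1-HA peaks lay at them, and how that compared with the other constructs. The TEAD recognition sequence was searched as CATTCC, which reads GGAATG on the other strand, and the AP-1 sequence as TGACTCA or TGAGTCA, each of which is found on both strands by searching for both.

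The DNA at which the peaks can be read is shown first. RefSeq promoter windows (250 bases before to 50 after the annotated start, GRCm38) were found for 8 of the 10 genes, and 14.7% of all 32851 windows held CATTCC on either strand. Short stretches are printed around the first match in the windows of Ankrd1, Axl, Amotl2, Lats2 and Ajuba, together with the 250 bases upstream of Cyr61, which hold a match but no peak, and of Wwc1, which overlap a TEAD1-HA peak but hold no match. Each is written 5′ to 3′ on the strand of the gene, in lower case, with the TEAD sequence in capitals. Of these 7 genes, Amotl2 lies on the plus strand and the others lie on the minus strand.
Ankrd1 chr19:36120037-36120066: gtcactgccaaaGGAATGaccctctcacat
Axl chr7:25788949-25788978: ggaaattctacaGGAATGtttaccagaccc
Amotl2 chr9:102717727-102717756: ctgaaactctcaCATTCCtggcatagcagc
Lats2 chr14:57746102-57746131: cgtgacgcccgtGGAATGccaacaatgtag
Ajuba chr14:54577830-54577859: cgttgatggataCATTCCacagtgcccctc
Cyr61 chr3:145649986-145650235: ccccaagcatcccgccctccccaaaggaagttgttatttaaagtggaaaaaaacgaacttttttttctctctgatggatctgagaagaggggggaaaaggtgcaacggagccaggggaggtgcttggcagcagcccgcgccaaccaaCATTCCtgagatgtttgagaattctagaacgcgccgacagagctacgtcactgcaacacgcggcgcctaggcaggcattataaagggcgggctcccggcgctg
Wwc1 chr11:35980528-35980777: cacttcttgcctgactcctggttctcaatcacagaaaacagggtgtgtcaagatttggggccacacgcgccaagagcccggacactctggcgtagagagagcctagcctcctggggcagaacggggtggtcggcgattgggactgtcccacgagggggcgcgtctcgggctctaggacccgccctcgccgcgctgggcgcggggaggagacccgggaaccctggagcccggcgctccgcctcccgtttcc

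The other 2 stretches lie in introns of Axl and Ajuba, inside TEAD1-HA peaks that hold the TEAD sequence. In these, capitals mark the TEAD sequence or the AP-1 sequence. Both are given on the minus strand, which is the strand of each gene.
Axl chr7:25781846-25781908: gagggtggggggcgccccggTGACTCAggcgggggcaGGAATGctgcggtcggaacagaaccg
Ajuba chr14:54575801-54575847: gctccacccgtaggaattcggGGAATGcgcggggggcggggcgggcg

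TEAD1-HA had a peak at 9 of the 10 genes and none at Ankrd1. Over all protein-coding genes the share with a TEAD1-HA peak in the same kind of window was 68.8%. TEAD1-HA is represented by 1 list of 14959 peaks, so there is no replicate error for any of its counts and no test was made. The 9 genes held 18 TEAD1-HA peaks, with 3 at Lats2 and Ajuba, 2 at Ctgf, Axl, Nuak2, Amotl2 and Wwc1, and 1 at Cyr61 and Tgfb2. Per megabase, the windows of the 10 genes (1384 kb in all) held 13.0 TEAD1-HA peaks, compared with 7.61 in the windows of all protein-coding genes and 5.49 in the genome. This is a ratio of 1.71 to the gene windows, and 11 of the 24 constructs had a higher ratio, so the density of TEAD1-HA peaks at these genes was not the highest of the series.

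At the gene starts, 5 of the 10 genes had a TEAD1-HA peak within 1 kb of an annotated transcript start, compared with 32.6% of all genes. The 5 were Ctgf, Tgfb2, Amotl2, Lats2 and Wwc1. Distances are from the middle of the peak to the nearest transcript start of the gene, and negative values are upstream.

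Among the secreted proteins, Ctgf (named Ccn2 in current annotation, chr10:24595442-24598683, plus strand) encodes a matricellular protein that promotes fibrosis and adhesion. It had a TEAD1-HA peak at chr10:24595704-24596093, with its middle in the coding sequence 119 bp downstream of a start, and a second one at chr10:24619315-24619741 in intergenic DNA, 23748 bp downstream. The peak at the start belonged to a joined site of 4 constructs (BHLHB8-HA, DLX1-HA, TEAD1-HA and TOX3-HA), and no other construct had a peak at the distal one. Within the joined site, the DLX1-HA peak did not overlap the TEAD1-HA peak. The site held 4 matches to CATTCC, 3 of them in the DLX1-HA peak and 0 in the TEAD1-HA peak. Cyr61 (Ccn1, chr3:145646976-145649981, minus strand), a relative of Ctgf in the same family, differed in that its single TEAD1-HA peak, at chr3:145606076-145606429, lay 43728 bp from its start in intergenic DNA, with the start of Znhit6 nearer at 29917 bp. Tgfb2 (chr1:186622792-186705989, minus strand), which encodes a TGF-beta family ligand, had 1 TEAD1-HA peak at chr1:186705218-186705652, in the UTR 265 bp downstream of a start, and no other construct had a peak at that place or within 1 kb of a Tgfb2 start.

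Of the signalling enzymes and receptors, Axl (chr7:25757273-25788705, minus strand) encodes a receptor tyrosine kinase that binds GAS6. Its TEAD1-HA peak at chr7:25781588-25781950 was in an intron and lay 6918 bp downstream of the start in a site with peaks of 8 constructs, and the 63-base stretch printed above was covered by the peaks of TEAD1-HA, EBF1-HA and BHLHB8-HA. The other TEAD1-HA peak in the Axl window, at chr7:25754226-25754703, was in a coding exon of Hnrnpul1, 236 bp from the start of that neighbour. Nuak2 (chr1:132316126-132333488, plus strand) encodes a kinase of the AMPK-related family. The nearer of its TEAD1-HA peaks, at chr1:132310098-132310549, lay 5802 bp upstream of its start in intergenic DNA with no other construct, while the other, at chr1:132298583-132299301, lay 316 bp from the start of Klhdc8a.

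Among genes that act back on the pathway, Lats2, Amotl2 and Wwc1 had a TEAD1-HA peak within 1 kb of a start and Ajuba did not. Lats2 (chr14:57689662-57758388, minus strand) encodes a kinase that phosphorylates YAP and TAZ, and its widest TEAD1-HA peak (765 bp), at chr14:57745613-57746377, spanned a transcript start, with the middle 110 bp downstream of it. The start of Gm49361, an overlapping annotated gene, was 108 bp from the same point, so the peak cannot be given to one of the 2 genes by distance. The other TEAD1-HA peaks in the Lats2 window lay 34762 and 50457 bp from its starts and were both nearest to a start of Xpo4, the nearer of them at 172 bp. Amotl2 (chr9:102716672-102733418, plus strand) encodes an angiomotin-family scaffold that retains YAP at junctions. It had the TEAD1-HA peak closest to a start of any of the 10 genes, at chr9:102717533-102717816, 7 bp from 1 of 9 annotated transcript starts and in the UTR, and a second one at chr9:102723385-102723705 in a noncoding exon 3258 bp downstream of a start.

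Ajuba (chr14:54567472-54577558, minus strand) encodes a LIM-domain protein that inhibits LATS kinases, and Wwc1 (chr11:35838400-35980527, minus strand) encodes KIBRA, an upstream activator of them. The Ajuba peak at chr14:54575655-54575981 was in an intron 1740 bp downstream of the start. The other TEAD1-HA peaks in the Ajuba window lay 23368 and 34920 bp away, at 171 and 1197 bp from starts of Haus4. The Wwc1 peak at chr11:35979974-35980661 covered the start and extended into the upstream stretch printed above, with its middle 209 bp downstream. The second Wwc1 peak, 145493 bp from the Wwc1 start, was 528 bp from a start of Rars. Ankrd1 (chr19:36111961-36120099, minus strand), which encodes a muscle ankyrin-repeat protein induced by YAP, had no TEAD1-HA peak in its window and had 33 peaks of 10 other constructs.

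In all, 9 of the 18 TEAD1-HA peaks were nearest to a start of 1 of the 10 genes, and 9 were nearest to a start of another gene, 6 of these within 1 kb of it, Gm49361 included. By the annotation at the middle of the peak, 7 of the 18 lay in a UTR, 2 in a coding exon and 1 in a noncoding exon, while 4 were intronic and 4 intergenic. This split was not counted over all TEAD1-HA peaks. The GC content of the central 200 bp had a median of 70.0% over the 18 peaks (range 33.0 to 82.5%), compared with 64.0% over all TEAD1-HA peaks. The 10 peaks within 1 kb of a start of any gene had a median GC content of 74.0%, and the other 8 had 45.5%. The lowest value was that of the Nuak2 peak upstream of the start (33.0%), followed by the Lats2 peak 50457 bp away (37.5%), and the distal peaks of Cyr61 (40.5%) and Ctgf (41.5%) were also low.

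**Figure D1:**
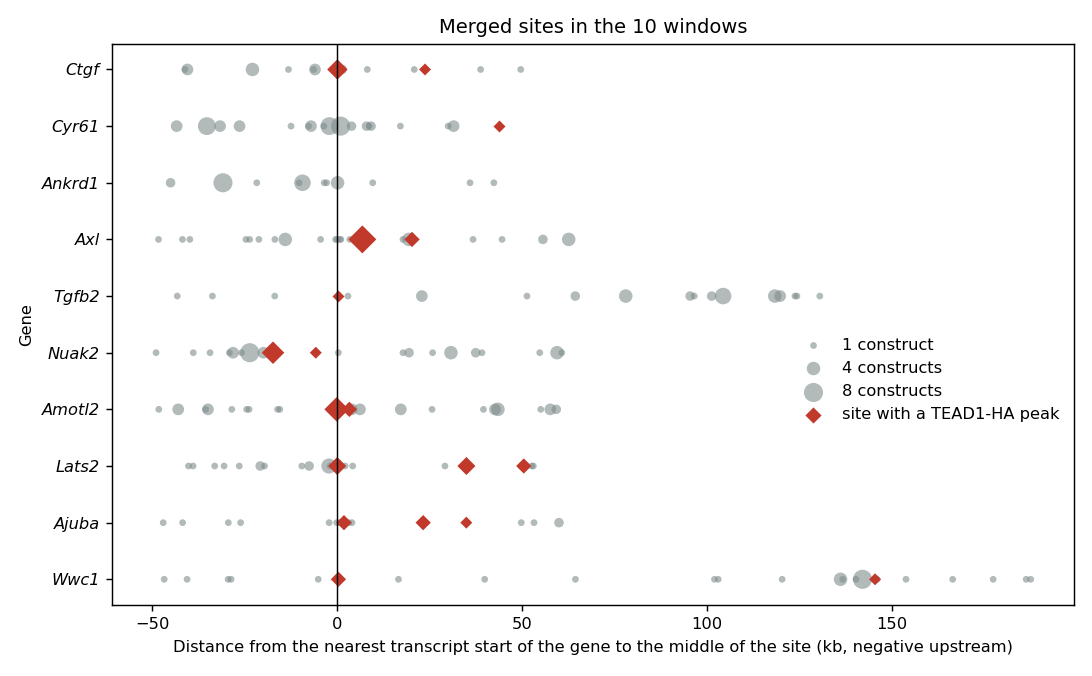
Merged sites of all lists in the windows of the 10 genes, with the distance in kb from the nearest transcript start of the gene to the middle of the site on the x axis (negative upstream) and the gene on the y axis. The point area grows with the number of constructs (1 to 8), and red diamonds mark sites with a TEAD1-HA peak. Diamonds stand at the start of Ctgf, Tgfb2, Amotl2, Lats2 and Wwc1, and Ankrd1 has none.

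The TEAD sequence was rare in these peaks. In the study's own motif search, TEAD1 was among the factors whose peaks showed no enrichment of a published motif. CATTCC was present in the central 200 bp of 2 of the 18 TEAD1-HA peaks (11.1%, exact Clopper-Pearson 95% interval 1.38 to 34.7%), compared with 4.51% of all TEAD1-HA peaks. The 2 were the Amotl2 peak at the start and the Ajuba peak in the intron, whose sequences around the match are printed above. Over the whole peak, 4 of 18 held it (22.2%, interval 6.41 to 47.6%), with the Axl intron and the Lats2 start added, compared with 10.2% of all TEAD1-HA peaks. The interval of the 10-gene share contains the share of all TEAD1-HA peaks in both cases, and it covers counting error only. No unbound DNA of matched length was scanned, so these shares do not show enrichment of the sequence. The longer form CATTCCA was in the central 200 bp of 0 of 18, with 0.929% in all. The AP-1 sequence was in 0 of 18 central windows and in 1 whole peak, that of the Axl intron, compared with 1.42% and 3.01% of all TEAD1-HA peaks.

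At the RefSeq promoter windows, the sequence and the peaks did not go together gene by gene. Cyr61 held CATTCC at 103 bases upstream of the start with no peak of any list over the window. Ankrd1 held 2 matches under peaks of BHLHB8-HA, DLX1-HA and DLX6-HA but not of TEAD1-HA. Amotl2 (65 bases upstream) and Lats2 (4 bases downstream) held 1 match each and had a TEAD1-HA peak over the window. A further Lats2 window, at chr14:57734369-57734668, held neither a match nor a peak. Wwc1 had a TEAD1-HA peak and no match. Ajuba held 2 matches and a RHOX11-HA peak, Axl held 1 match and peaks of EBF1-HA and ZFP319-HA, and Tgfb2 held neither a match nor a peak. A match is only a run of letters and does not show a bound site.

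Most of the TEAD1-HA peaks at these genes were at places where another construct also had a peak. Only 6 of 18 (33.3%, interval 13.3 to 59.0%) lay at a site with no other construct, compared with 67.1% of all TEAD1-HA peaks. BHLHB8-HA, a bHLH factor with the most peaks of the series, overlapped 11 of the 18 (61.1%, interval 35.7 to 82.7%), compared with 29.0% of all TEAD1-HA peaks. Both all-peak shares lie outside these intervals, but the intervals treat the peaks as independent and are not a test. The 10 windows were denser in BHLHB8-HA peaks than all gene windows (80.2 against 41.3 per megabase). Whether the overlap exceeds that density was not tested. EBF1-HA overlapped 3 of 18 (16.7% against 3.38%), and DLX1-HA and TOX3-HA overlapped 2 each (11.1% against 6.33% and 2.55%). The peaks are not independent of each other, since several share a gene and a neighbourhood, and the intervals do not account for this.

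The 28 lists placed 417 peaks in the 10 windows, and joining overlapping peaks gave 186 sites. Of the 417, 200 were intergenic, 139 intronic, 39 in a UTR, 21 in a noncoding exon and 18 in a coding exon, a split not counted over the whole lists. A single construct accounted for 120 of the sites (64.5%, against 76.3% of all 168506 sites of the genome), 12 sites (6.45%, against 5.60%) held at least 5 constructs, and none held 10 or more. BHLHB8-HA was at 111 of the 186 sites and at each of the 12 that held at least 5 constructs, while SOX2-HA and DLX6-HA were at 10 of the 12 and TEAD1-HA at 3. BHLHB8-HA had 83627 merged peaks in the genome. The share of all sites of the genome that hold each construct was not counted, so these counts are not particular to the 10 genes. The 5 most shared sites held 8 constructs each, at Cyr61, Ankrd1, Axl, Nuak2 and Wwc1, and TEAD1-HA was at the Axl site alone among them.

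**Figure D2:**
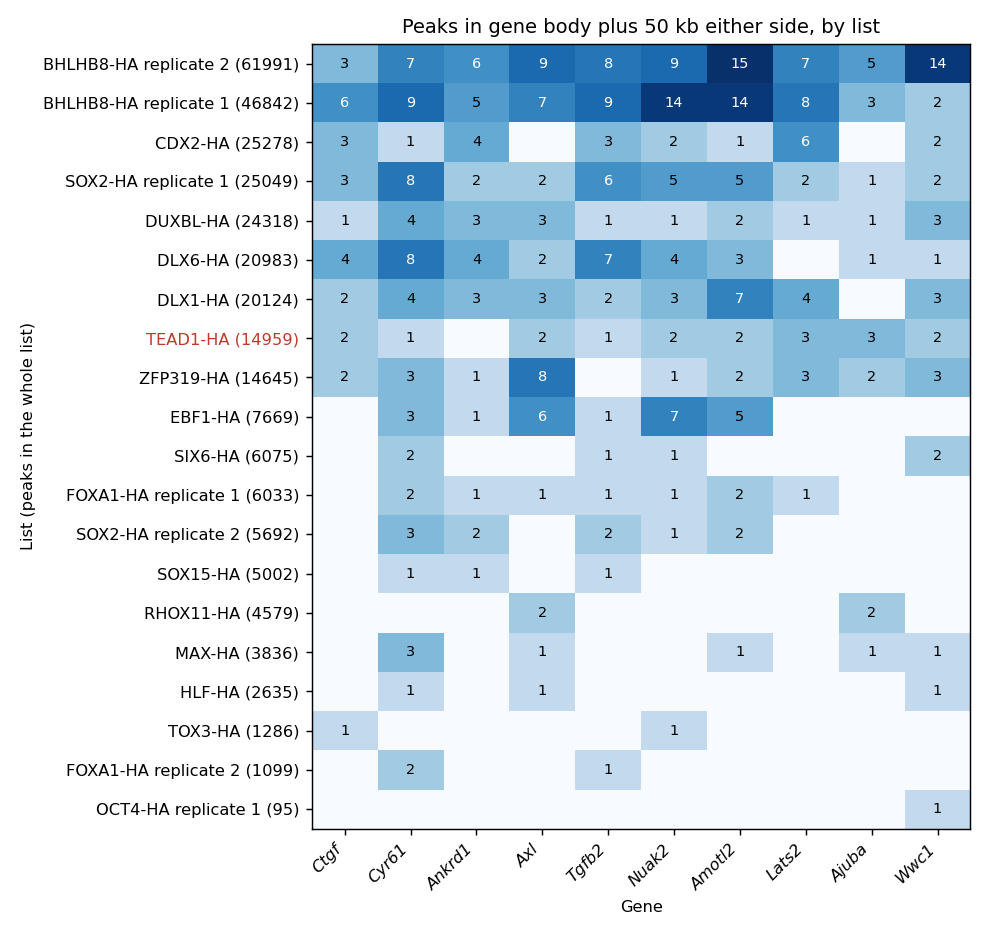
Number of peaks in the gene body plus 50 kb on either side, for each of the 10 genes (x axis) and each of the 20 lists with at least 1 such peak (y axis, with the size of the whole list). Darker cells hold more peaks and empty cells hold 0. The lists with the most peaks in the genome fill most cells, and the TEAD1-HA row has 0 only at Ankrd1.

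Cyr61 had peaks of the most constructs, 14 of 24, and 62 peaks in a window of 103 kb. Its most shared site, at chr3:145648690-145649453 and 909 bp downstream of the start, held 8 constructs (BHLHB8-HA, DLX6-HA, DUXBL-HA, EBF1-HA, SIX6-HA, SOX15-HA, SOX2-HA and ZFP319-HA) and 3 matches to CATTCC, and had no TEAD1-HA peak. Sites with 7 constructs lay 2120 and 35266 bp upstream. The start of Cyr61 was thus the most crowded of the 10, with 8 constructs within 1 kb, and TEAD1-HA was not among them. Ctgf had 27 peaks of 9 constructs in a window of the same size, and 4 constructs were within 1 kb of a start, TEAD1-HA included.

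Amotl2 had 61 peaks of 11 constructs. The site at its start, chr9:102717160-102717851, held 6 constructs (BHLHB8-HA, DLX1-HA, DLX6-HA, EBF1-HA, SOX2-HA and TEAD1-HA), which made it the site with the most constructs among those that held a TEAD1-HA peak near a start. Both BHLHB8-HA lists had the largest or joint largest count of their 10 genes here, with 14 and 15 peaks. Tgfb2, with 44 peaks of 11 constructs, had a different layout, since its sites with at least 4 constructs lay 78052, 104391 and 118364 bp downstream of the start, at the far end of the gene or beyond it, and its start had the TEAD1-HA peak alone.

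Ankrd1 had its most shared site 30917 bp upstream, at chr19:36150496-36151535, with BHLHB8-HA, DLX1-HA, DLX6-HA, DUXBL-HA, FOXA1-HA, SOX15-HA, SOX2-HA and ZFP319-HA. Of the peaks joined there, only that of BHLHB8-HA replicate 1 held the AP-1 sequence. A site with 6 constructs lay 9412 bp upstream, and 4 constructs were within 1 kb of a start. The Axl intron site at chr7:25781326-25782463 joined TEAD1-HA with BHLHB8-HA, DLX6-HA, EBF1-HA, FOXA1-HA, MAX-HA, RHOX11-HA and SOX2-HA. Of these, only peaks of BHLHB8-HA, EBF1-HA and RHOX11-HA overlapped the TEAD1-HA peak itself. At the Axl start itself only EBF1-HA and ZFP319-HA had peaks within 1 kb, and ZFP319-HA placed 8 peaks in the Axl window, its largest count over the 10 genes.

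For Nuak2, Wwc1, Axl, Ajuba and Lats2, much of the window belonged to neighbours. The share of peaks nearest to the gene's own start was 11.5% at Nuak2, 27.0% at Wwc1, 38.3% at Axl, 42.1% at Ajuba and 51.4% at Lats2. It was between 85.2% and 100% at the other 5 genes, and 272 of the 417 peaks (65.2%) in all were nearest to a start of the gene in whose window they lay. The most shared Nuak2 site, 23662 bp upstream at chr1:132291941-132292986, was nearer to Klhdc8a, and the most shared Wwc1 site, at chr11:35837582-35839272 in the UTR at the 3′ end of the gene, was nearer to Rars. Lats2 had its most shared site 2253 bp upstream at chr14:57760366-57760915, with 5 constructs. Ajuba was the gene with the fewest peaks (19) and had no site with over 2 constructs.

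The other constructs with many peaks also reached most of the 10 genes. BHLHB8-HA had a peak at 10 of 10, against 86.0% of all genes, SOX2-HA at 10, against 57.8%, and DUXBL-HA at 10, against 64.2%. DLX6-HA missed Lats2 (9 of 10, against 53.1%), DLX1-HA missed Ajuba (9 of 10, against 60.5%) and ZFP319-HA missed Tgfb2 (9 of 10, against 59.4%). CDX2-HA was at 8 of 10, against 56.4%, with none at Axl or Ajuba. TEAD1-HA, with 9 of 10, was therefore 1 of 7 constructs that reached at least 9 of the genes, and its share over all genes was the second highest after BHLHB8-HA.

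The constructs with fewer peaks split between the genes. FOXA1-HA was at 7 of 10 (28.2% of all genes), EBF1-HA at 6 (38.8%), MAX-HA at 5 (23.0%), SIX6-HA at 4 (27.8%), SOX15-HA and HLF-HA at 3 (22% and 15.6%), and RHOX11-HA and TOX3-HA at 2 (34.3% and 10.1%). RHOX11-HA was below the share of all genes, with peaks at Axl and Ajuba only. OCT4-HA expressed alone was at 1 of 10 (0.766% of all genes), through 1 peak at Wwc1 that was in replicate 1 and not in replicate 2. No gene of the 10 had a peak of OCT4-HA expressed with SOX2-YPET (5146 peaks, 15.9% of all genes), BRACHYURY-HA (3.92%), NANOG-HA (1.82%), FOXA1_RR-HA (0.921%), FOXA1_SW-HA (0.884%), PRR3-HA (0.451%) or THAP4-HA (0.447%). Apart from the co-expressed OCT4-HA, these 6 lists held 58 to 720 peaks each in the genome.

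Near the starts, BHLHB8-HA was within 1 kb at 8 of the 10 genes (48.2% of all genes), followed by TEAD1-HA at 5 and DLX1-HA at 4 (13.6%). EBF1-HA was there at Cyr61, Axl and Amotl2 (6.50% of all genes) and DLX6-HA at Cyr61, Ankrd1 and Amotl2 (8.44%). SOX2-HA (5.62%), DUXBL-HA (4.64%) and ZFP319-HA (7.33%) were each at 2 starts. Cyr61 alone had SIX6-HA (2.72%) and SOX15-HA (0.912%), Ajuba alone RHOX11-HA (11.2%) and Ctgf alone TOX3-HA (2.40%). The start of Tgfb2 had TEAD1-HA and the start of Nuak2 had BHLHB8-HA as the single construct within 1 kb.

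**Figure D3:**
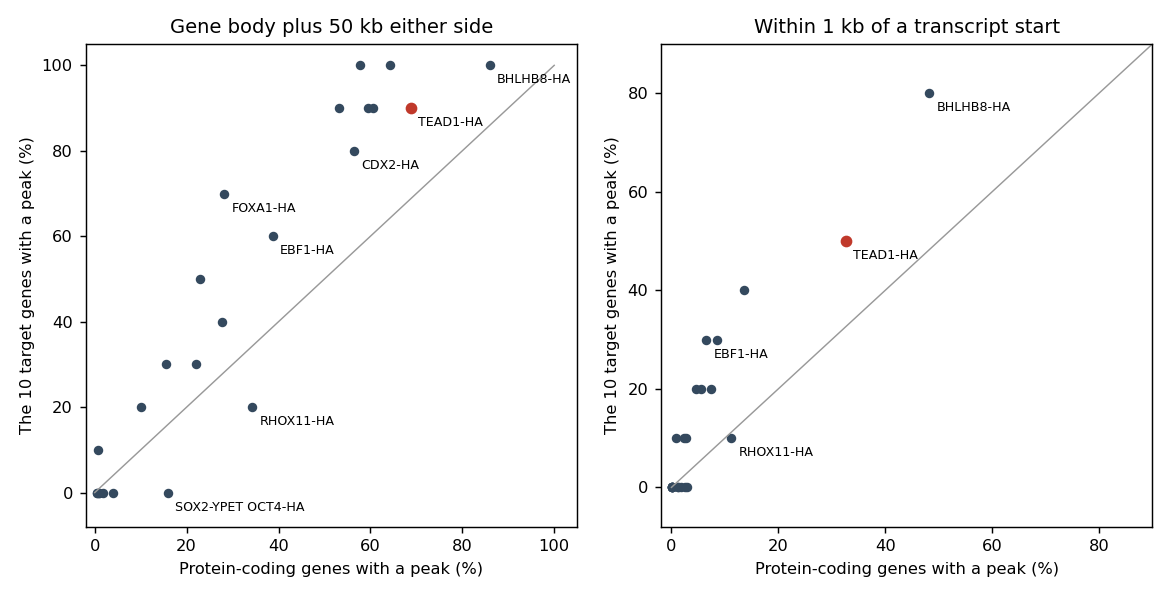
Share of the 10 genes with a peak (y axis, %) against the share of all 21938 protein-coding genes with a peak (x axis, %), 1 point for each of the 24 constructs, with TEAD1-HA in red and the line of equal shares in grey. Left, gene body plus 50 kb on either side, where TEAD1-HA stands at 90% against 68.8%; right, within 1 kb of a transcript start, where it stands at 50% against 32.6%.

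Peak density in the windows of the 10 genes was set against that in the windows of all protein-coding genes. EBF1-HA had the highest ratio among constructs with more than 1 peak in the windows (16.6 against 3.97 peaks per megabase, ratio 4.19). MAX-HA followed with 2.68, DLX6-HA with 2.58, ZFP319-HA with 2.50, SOX2-HA with 2.36 and DLX1-HA with 2.30. BHLHB8-HA (80.2 against 41.3 peaks per megabase) had 1.94 and CDX2-HA 1.39. SOX15-HA, with 3 peaks, was at 0.963. The 7 constructs with no peak in the windows had a ratio of 0, among them OCT4-HA with SOX2-YPET, which had 1.94 peaks per megabase over all gene windows.

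The duplicate lists give the only view of replicate spread. Both BHLHB8-HA lists had peaks at all 10 genes, with 77 and 83 peaks. Of these, 61.0% and 57.8% overlapped a peak of the other list, compared with 53.3% and 39.2% of all peaks of these lists. The SOX2-HA lists differed far more. Replicate 1 (25049 peaks) had 36 peaks at 10 genes, and replicate 2 (5692 peaks) had 10 peaks at 5 genes (Cyr61, Ankrd1, Tgfb2, Nuak2 and Amotl2), of which 8 overlapped replicate 1. Without replicate 1, SOX2-HA is at 5 of 10 genes. The share of all genes with a peak was counted for merged lists only, so single replicates of SOX2-HA and FOXA1-HA have no such share beside them. FOXA1-HA had 9 peaks at 7 genes in replicate 1 (6033 peaks) and 3 peaks at Cyr61 and Tgfb2 in replicate 2 (1099 peaks), all 3 of them shared, so that without replicate 1 it is at 2 of 10. Over the whole FOXA1-HA lists, 14.2% of replicate 1 and 77.6% of replicate 2 overlapped the other list, compared with 33.3% and 100% here. The count of genes thus differed by over 1.5 times between the SOX2-HA and between the FOXA1-HA duplicates, but not between those of BHLHB8-HA, and the counts of constructs with 1 list carry an error of unknown size.

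The binding sequences of other factors were looked for in their own peaks in the same way. CAGCTG, the E-box of BHLHB8 and its relatives, was in the central 200 bp of 39.0% and 34.9% of the BHLHB8-HA peaks at the 10 genes, compared with 37.8% and 35.1% of all. The AP-1 sequence is given for the lists with 20 or more peaks here. Its share was above that of all peaks in BHLHB8-HA replicate 1 (18 of 77, 23.4% against 14.4%) and replicate 2 (10.8% against 7.83%). The same held for DUXBL-HA (20.0% against 12.4%), ZFP319-HA (8.00% against 5.16%) and DLX1-HA (10 of 31, 32.3% against 27.2%). It was below in CDX2-HA (4.55% against 11.5%), DLX6-HA (5 of 34, 14.7% against 26.7%) and EBF1-HA (2 of 23, 8.70% against 21.7%). It was also below in SOX2-HA replicate 1, with 4 of 36 peaks (11.1% against 28.8%). CATTGT, a SOX sequence, was in 8 of the same 36 (22.2%, against 27.2%). TTTATG, a caudal-type sequence, was in 5 of 22 CDX2-HA peaks (22.7%, interval 7.82 to 45.4%, against 52.6%). TGTTTAC, a forkhead sequence, was in 4 of 9 peaks of FOXA1-HA replicate 1 (44.4%, interval 13.7 to 78.8%, against 25.8%). FOXA1-HA replicate 2 had it in 0 of 3, against 23.1%. These come from 35 pairs of list and sequence, the peaks cluster by gene, and no difference was tested.

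Likeness between genes in which constructs reached them was measured as the number of constructs with a peak at both genes divided by the number with a peak at either, over 24 constructs. Cyr61 shared 11 of 14 constructs with Amotl2 and 11 of 14 with Tgfb2 (0.786 each), the highest values of the 45 pairs. Tgfb2 and Ajuba had the lowest, 0.357. The large lists reach most genes of the genome and are common to all pairs, no other gene pairs were measured, and these values are a description.

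The wider pathway was set beside these genes with lists chosen by function. Of 14 other genes of a published 22-gene YAP/TAZ signature, which also holds 8 of the 10 genes here, 14 had a TEAD1-HA peak in the window and 10 had one within 1 kb of a start. The peaks closest to a start were at Ptpn14, a phosphatase that restrains YAP (31 bp), Arhgef17 (42 bp), Gadd45a, a stress-response gene (48 bp), F3, the tissue factor gene (81 bp upstream), and Asap1, an ARF GTPase-activating protein (92 bp). Of 26 genes of the Hippo cascade itself, 24 had a TEAD1-HA peak in the window and 20 had one within 1 kb of a start, while Amot and Amotl1 had none. The closest were at Yap1, the coactivator (53 bp), Vgll4, a TEAD-binding corepressor (58 bp), Nf2, an upstream activator of LATS (63 bp), Map4k4, an upstream kinase (66 bp), and Tead3, a TEAD factor (67 bp upstream).

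The 10 target genes thus had TEAD1-HA near the start at 5 of 10, against 10 of 14 other signature genes, 20 of 26 cascade genes and 32.6% of all genes. Per megabase of window, the values were 13.0 for the 10 genes, 8.39 for the other signature genes, 11.4 for the cascade genes and 7.61 for all. The median number of TEAD1-HA peaks in a window was 2.00 for the 10 genes, 1.50 and 2.00 for the lists, and 1.00 for all genes. The differences between these lists were not tested.

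**Figure D4:**
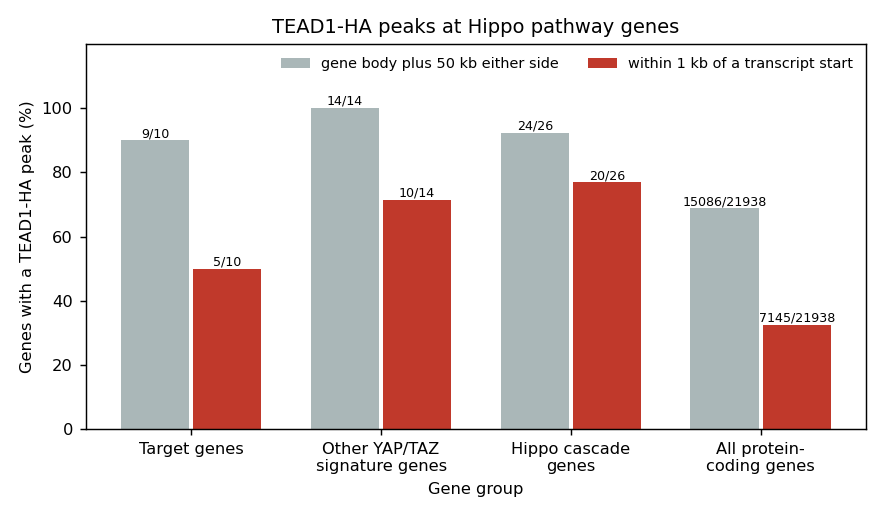
Share of genes with a TEAD1-HA peak (y axis, %) in the gene body plus 50 kb on either side (grey bars) and within 1 kb of a transcript start (red bars), for the 10 target genes, 14 other YAP/TAZ signature genes, 26 Hippo cascade genes and all protein-coding genes (x axis), with the counts above the bars. The red bar of the target genes (5 of 10) is lower than those of both pathway lists and higher than that of all genes.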

How the data were processed

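Peak lists were deposited by the authors as 3-column intervals with no height, score or read number, so the depth of each library is unknown and peaks could not be ranked. Per the study's methods and the submitters' processing notes, 37 nt paired-end reads were aligned to mm10 with STAR 2.5.3a, keeping unique alignments, duplicates were removed with Picard, and peaks were called for each sample with MACS2 2.1.1.20160309. Peaks touching an input peak or the ENCODE blacklist had been removed. The 29 samples comprise 28 peak lists and the input. Unique alignment and the blacklist can leave parts of repeated DNA without peaks, and a list with few peaks may reflect a weak library or weak binding. Duplicate lists are biological replicates per the study's text. The cell type could not be checked from peaks.

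Windows were the GENCODE M21 gene body plus 50 kb, and an overlap of 1 bp counted. Lists of 1 construct were merged before genes were counted. A site is a run of overlapping peaks of any list, joined end to end, and can be wider than each peak. Counts were set beside the percentage over all 21938 protein-coding genes, with no test, because TEAD1-HA has 1 list. Intervals are exact Clopper-Pearson at 95% and cover counting error only. The genes and the lists were chosen with earlier results of these data known. All 10 genes are named, the 5 genes of each pathway list with the closest TEAD1-HA peak, and, by position, the closest and most shared sites and each TEAD1-HA peak within 5 kb of a start. The most shared sites of Tgfb2 and the other distal TEAD1-HA peaks were added after their values were seen. Promoter sequences came from RefSeq (GRCm38), where Ctgf and Nuak2 were not matched, and others from the GRCm38 genome. Python 3.11.15, NumPy 2.4.6 and SciPy 1.17.1 were used, and the counting was tested on simulated intervals. Other windows, overlap rules and widths, and each duplicate left out in turn, were tried as alternatives.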

Additional observations from a re-analysis of the deposited data

How the results depend on the processing

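No paired analysis was possible because the counts come from no test and TEAD1-HA has 1 list. The number of genes with a TEAD1-HA peak was 7 to 10 under all 7 alternatives, against 37.7% of all genes for the gene body alone and 78.9% for 100 kb on either side, where Ankrd1 was reached too. The number near a start was 4 at the 5′ end of the gene alone (29.6% of all genes), 5 within 500 bp (31.3%) and 6 within 5 kb (36.6%). With the gene body alone there were 8 TEAD1-HA peaks, 55 pairs of gene and construct with a peak in place of 107, and 108 peaks of all lists. With 10 kb on either side there were 11 TEAD1-HA peaks and 186 peaks of all lists. Smaller windows hold fewer peaks by construction. With peaks of at least 300 bp alone, 240 peaks of all lists were left, while TEAD1-HA kept 16. The whole TEAD1-HA list had a median width of 337 bp and a narrowest peak of 264 bp, so most of its peaks pass this width anywhere. TEAD1-HA peaks with the TEAD sequence numbered 4 over the whole peak and 0 for CATTCCA, which are a longer stretch and a longer sequence. Leaving out 1 duplicate list gave 102 to 107 pairs and 334 to 417 peaks. For single constructs, 31 of 176 values moved by over 1.5 times, 30 of them downward. Peak lists without heights or depth limit every count to what the caller passed.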
